A study of Mus musculus with 9 samples.

Results

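A list of 40 genes of macrophages, other myeloid cells and the complement system was followed in the sciatic nerve of mice that lacked TDP-43 in Schwann cells. Their symbols were matched to the Ensembl identifiers of a table of 36121 genes, and all 40 reached a mean of 1 or more over the 9 libraries, as did 15014 genes of the table. The 3 groups were 21-day-old C57BL6 mice, each with 2 females, 1 male and 1 library per mouse: conditional knockouts (cKO, Cnp-Cre with 2 floxed Tardbp alleles), conditional heterozygotes (cHet, Cnp-Cre with 1 floxed and 1 wild-type allele) and controls (both alleles floxed, no Cre). Cnp-Cre acts in Schwann cells and oligodendrocytes, and no group carried Cre without a floxed allele. Mice are named here by group and mouse ID.

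The genotype field of the labels contradicts the sample title for 3 libraries. It gives both floxed alleles and no Cre for cHet ID-2742 and the heterozygous genotype for cKO ID-2744 and ID-2747. Groups follow the titles, and the called genes and the median of the list are also given without these 3 libraries and with groups by the field. Tardbp itself was 103, 94.2 and 103 normalized TPM in cKO ID-2744, ID-2747 and ID-2748, 177, 179 and 186 in cHet and 185, 194 and 217 in control nerves. Both cKO libraries with a contradicting field thus lay beside the third cKO library, and cKO fell by 0.98 on the log2 scale relative to control (limma, SE 0.09, adjusted p = 0.00219). An exact permutation test of 3 against 3 libraries gave p = 0.1 (two-sided), the smallest it can give.

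Macrophages live in every peripheral nerve, between the fibres and in the outer sheaths. They depend on the CSF1 receptor, engulf debris and worn membrane through scavenger, Fc, complement and TAM receptors, digest it in lysosomes and present peptides on MHC class II. Complement protein C1q, which tags surfaces for uptake, is made in tissue largely by macrophages. After nerve injury these cells multiply and take up myelin, while uninjured nerve keeps a small resident population.

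Values are normalized TPM, an abundance per transcript length scaled between libraries, so levels can be compared between genes. Log2 fold changes (log2FC) are of the value plus 0.5, so changes of low genes are understated. They come from 1 limma model over the 9 libraries, and adjusted p (Benjamini-Hochberg) covers all 15014 genes with a mean of at least 1. The threshold was an adjusted p of 0.05. In whole nerve, fewer cells of a type and less RNA per cell cannot be told apart.

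In cKO nerves 2 of the 40 genes passed the threshold against control, and both were higher: Lgals3, the lectin galectin-3, and Fcgr2b, the inhibitory Fc receptor. None was lower. Of all genes tested 0.932% were called higher and 0.633% lower in the same comparison. The median log2FC of the 40 genes was 0.12, beside -0.02 over all genes tested, with 24 genes above and 16 below 0. The 95% confidence interval contained 0 for 36 genes and lay within 1 log2 unit of 0 for 30. Standard errors ran between 0.14 and 0.80 with a median of 0.24, and for these 30 a change of 1 log2 unit either way lay outside the interval.

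**Figure D1:**
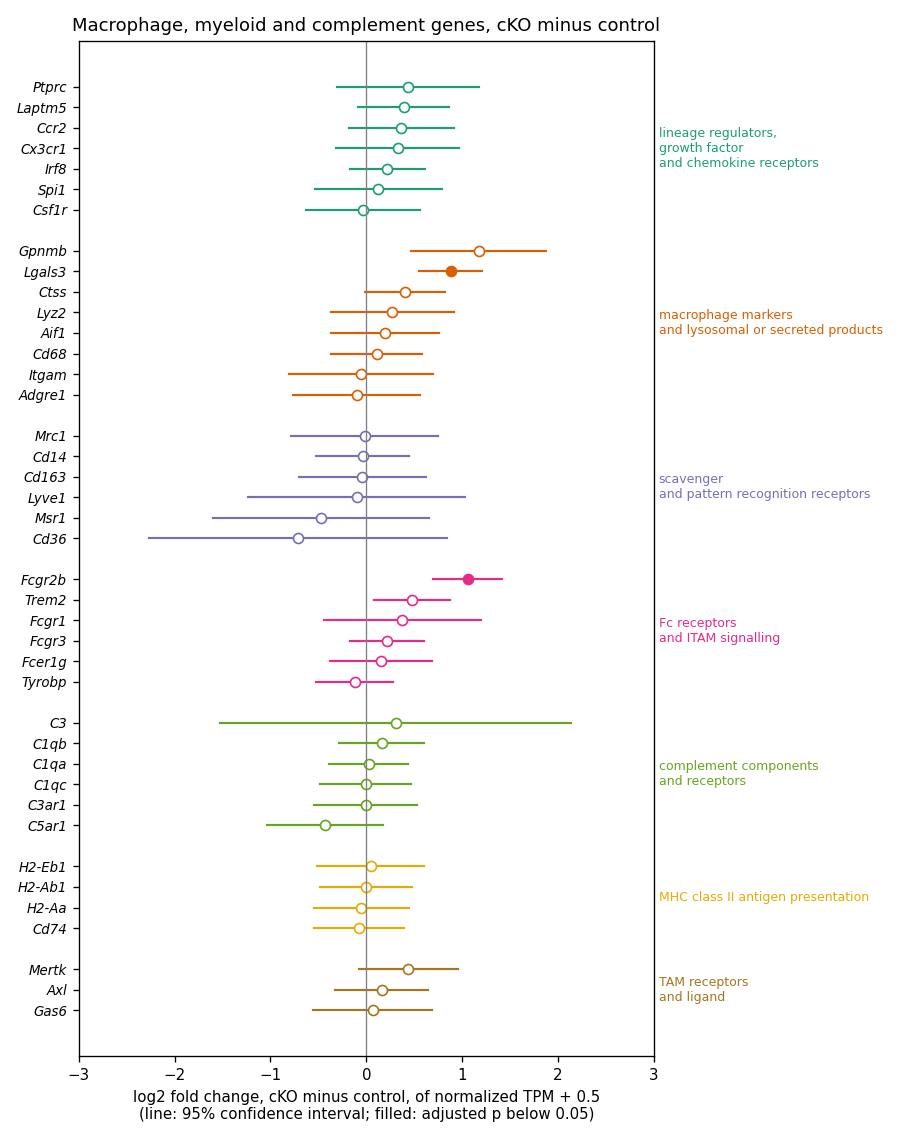
Log2 fold change of each of the 40 genes in cKO minus control nerves (n = 3 libraries each), grouped by role, with its 95% confidence interval as a line. Filled points, adjusted p below 0.05, are Lgals3 and Fcgr2b; the interval of 36 genes crosses the vertical line at 0.

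The genes that set macrophage identity and guide the cells showed no call. Spi1 (the transcription factor PU.1) and Irf8 drive myeloid differentiation, Csf1r receives the survival signal CSF1, Cx3cr1 and Ccr2 are chemokine receptors of resident and monocyte-derived cells, Ptprc is the pan-leukocyte phosphatase CD45 and Laptm5 a lysosomal membrane protein of blood cells. Csf1r had 39.5, 21.4 and 27.6 in cKO, 33.0, 28.2 and 27.8 in cHet and 40.8, 22.1 and 27.7 in control nerves. A cKO and a control library were about equally high and the groups overlapped fully (cKO minus control log2FC -0.03, 95% interval -0.63 to 0.56, adjusted p = 0.98). Cx3cr1 was 15.2, 8.70 and 11.3 in cKO, 13.6, 11.2 and 7.26 in cHet and 11.8, 7.77 and 8.0 in control libraries (log2FC 0.33, interval -0.31 to 0.96, adjusted p = 0.713). The groups overlapped, with cKO ID-2744 highest of the 9. For Ptprc the values were 5.57, 5.60 and 4.06 in cKO, 4.76, 3.99 and 4.66 in cHet and 6.70, 2.48 and 2.69 in control nerves, the 3 controls spanning the other groups (log2FC 0.43, adjusted p = 0.659). The other 4 genes had a log2FC between 0.13 for Spi1 and 0.39 for Laptm5, with adjusted p of 0.496 or more.

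Among macrophage markers and secreted or lysosomal products the defining markers were not called. Only Lgals3 was, and the cKO libraries of Lgals3 and Gpnmb lay above all others. Adgre1, the F4/80 antigen that defines mouse macrophages, had 10.8, 4.90 and 8.38 in cKO, 9.22, 6.76 and 6.40 in cHet and 10.3, 6.32 and 8.53 in control libraries (log2FC -0.10, interval -0.76 to 0.56). Aif1, the cytoskeletal protein IBA1, had 11.5, 13.5 and 12.1 in cKO, 18.2, 8.77 and 9.85 in cHet and 12.5, 9.60 and 10.2 in control libraries (log2FC 0.20, adjusted p = 0.824). Cd68, a lysosomal glycoprotein of phagocytes, had 18.0, 15 and 13.9 in cKO, 17.5, 15.8 and 15 in cHet and 20.4, 11.2 and 12.9 in control libraries (log2FC 0.11, adjusted p = 0.899). All of these markers were present in every library, and the groups overlapped for each of the 3. Lyz2 (lysozyme), the most abundant of the 40 genes at a mean of 169, and Ctss (cathepsin S, a protease of the class II pathway) had a log2FC of 0.27 and 0.40 with adjusted p = 0.774 and 0.407. Itgam, the integrin subunit CD11b and the lowest of the 40 at a mean of 2.93, had a log2FC of -0.06, but 68.3% of the 31-base words in its transcripts (GENCODE M21, either strand) are also in transcripts of other genes, mainly the overlapping model Gm49368, so its level is uncertain. The like share was 32.8% for Lyz2, all with its neighbour Lyz1, and 14.9% for Csf1r, mainly with Hmgxb3, which overlaps it on the opposite strand.

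**Figure D2:**
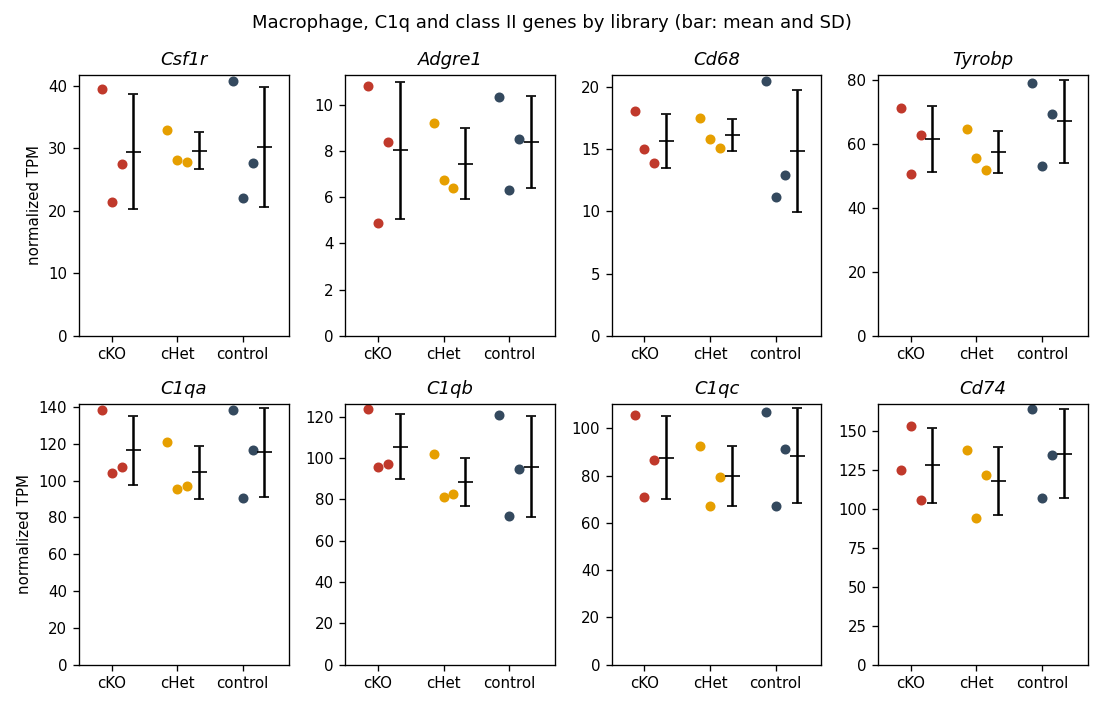
Normalized TPM of 8 genes of macrophages, C1q and MHC class II in each library of cKO, cHet and control nerves, with the group mean and SD (n = 3 each) beside the points. The cKO and control points overlap in every panel, for Csf1r 21.4 to 39.5 in cKO and 22.1 to 40.8 in control nerves.

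Lgals3 encodes galectin-3, also known as the macrophage antigen Mac-2, a β-galactoside-binding lectin that phagocytes secrete and that Schwann cells can also make. The gene lies on chromosome 14 (GRCm38 47367751 to 47386160, plus strand). Its level was 68.9, 67.5 and 70.1 in cKO ID-2744, ID-2747 and ID-2748, against 31, 29.4 and 27.2 in cHet and 46.6, 30.5 and 36.2 in control nerves. The 3 cKO libraries lay within 3 units of each other and above all 6 others, and cHet and control overlapped. The log2FC was 0.88 (SE 0.14, interval 0.55 to 1.20, adjusted p = 0.0251) against control and 1.22 (SE 0.14, adjusted p = 0.00696) against cHet. These comparisons share the cKO libraries.

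Gpnmb, a glycoprotein of lysosomes and melanosomes found in phagocytes that handle lipid, had the largest log2FC of the 40 genes against control, 1.17, and missed the threshold (SE 0.31, adjusted p = 0.127). Its values were 6.44, 6.19 and 6.2 in cKO, 3.96, 2.04 and 2.5 in cHet and 3.98, 1.55 and 2.46 in control libraries. Every cKO library was above every other library, and the spread lay among the cHet and control nerves.

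Scavenger and pattern recognition receptors bind lipoproteins, glycans, haptoglobin-haemoglobin and bacterial lipid, and several mark macrophages around vessels and in the sheaths. All 6 had a log2FC below 0 in cKO minus control, between -0.71 and -0.02, and none was called. Mrc1, the mannose receptor CD206, had 25.3, 12.9 and 19.6 in cKO, 20.3, 18.0 and 19.4 in cHet and 32.7, 14.7 and 13.9 in control libraries (log2FC -0.02, adjusted p = 0.99). For Cd163, the haemoglobin scavenger receptor, the values were 23.5, 13.2 and 16.3 in cKO, 15, 15.9 and 23.8 in cHet and 21.7, 12.2 and 21.0 in control libraries (log2FC -0.04, adjusted p = 0.974). Both genes overlapped between all groups. Lyve1, a hyaluronan receptor of lymphatic endothelium and of some resident macrophages, had 7.53, 4.78 and 6.91 in cKO, 6.52, 4.05 and 7.28 in cHet and 14.2, 2.71 and 7.72 in control libraries, so control nerves held both the highest and the lowest value. Cd14 (the lipopolysaccharide co-receptor) and Msr1 (scavenger receptor A) had a log2FC of -0.04 and -0.47 with adjusted p = 0.971 and 0.776.

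Cd36 takes up fatty acids and oxidised lipoprotein and is abundant in adipocytes and capillaries as well as in macrophages. It had 34.6, 20.7 and 33.2 in cKO, 29.6, 14.5 and 32.9 in cHet and 95.5, 13.5 and 81.8 in control nerves (log2FC -0.71, interval -2.27 to 0.85, adjusted p = 0.751). Control ID-2743 and ID-2754 were far above the other 7 libraries and control ID-2746 was the lowest of all. The summed level of 10 adipocyte markers was 391, 474 and 427 in cKO, 560, 85.4 and 607 in cHet and 2251, 120 and 3210 in control libraries, and Adipoq, which defines the cell type, was 126 and 193 in the same 2 controls, against 30.8 or less elsewhere. The part of adipose tissue in the Cd36 values was not tested.

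**Figure D3:**
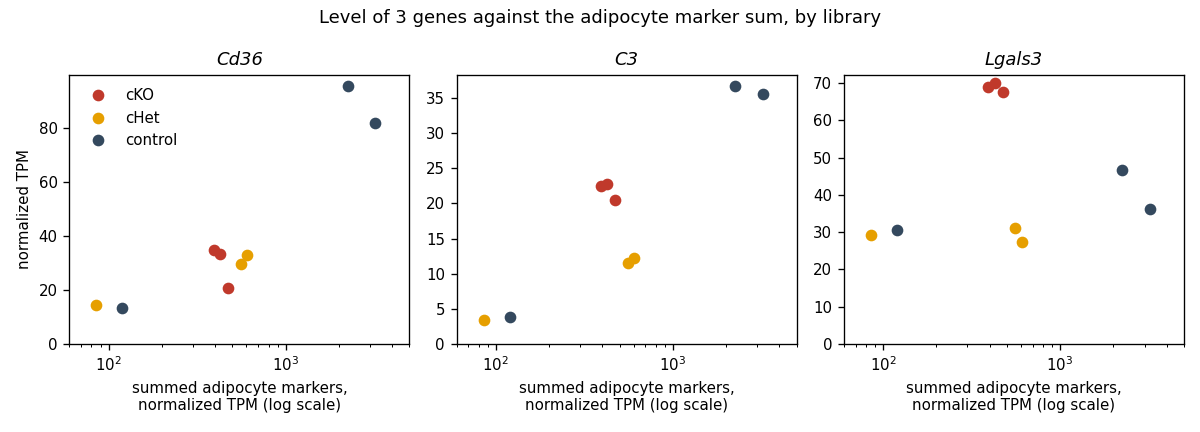
Normalized TPM of Cd36, C3 and Lgals3 in each of the 9 libraries against the summed level of 10 adipocyte markers in that library (log scale), coloured by group. The 2 control libraries at 2251 and 3210 on the horizontal axis have the highest Cd36 and C3, while Lgals3 is highest in the 3 cKO libraries at 391 to 474.

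Fc receptors carry the second called gene. They bind the constant part of IgG: Fcgr1, Fcgr3 and the shared γ chain Fcer1g activate the cell through ITAM motifs, Tyrobp (DAP12) is the ITAM adaptor of the lipid sensor Trem2, and Fcgr2b inhibits. Fcgr2b lies on chromosome 1 (GRCm38 170958617 to 170976547, minus strand), in the same cluster as Fcgr3. It had 61.3, 52.3 and 67.5 in cKO, against 27.5, 35.3 and 33.0 in cHet and 30.7, 23.2 and 32.7 in control nerves. The lowest cKO library was above the highest of the other 6, and cHet and control overlapped. The log2FC was 1.06 (SE 0.16, interval 0.69 to 1.42, adjusted p = 0.0183) against control and 0.91 (SE 0.16, adjusted p = 0.0311) against cHet.

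Fcgr2b and Fcgr3 share sequence, which bears on how reads are divided between them. Of the 31-base words in Fcgr2b transcripts 8.15% also occur in other genes and 4.15% in Fcgr3, while 13.4% of those of Fcgr3 occur in Fcgr2b. The longest run of coding bases common to both, 129 bases of the extracellular part, is shown because bases inside it cannot tell the genes apart. It lies in exons 3 and 4 of both genes on the minus strand of chromosome 1 (GRCm38, GENCODE M21), in Fcgr2b at 170967980 to 170968081 and 170966674 to 170966700 and in Fcgr3 at 171057691 to 171057792 and 171054167 to 171054193.
Fcgr2b and Fcgr3 shared run: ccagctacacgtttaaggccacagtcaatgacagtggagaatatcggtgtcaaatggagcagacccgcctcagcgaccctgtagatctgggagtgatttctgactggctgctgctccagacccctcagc

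Fcgr3 itself had 30.5, 23.8 and 26.3 in cKO, 21.1, 18.3 and 20.8 in cHet and 28.9, 18.2 and 22.9 in control nerves. The cKO libraries were above the cHet ones and overlapped control (log2FC 0.22, adjusted p = 0.676 against control, and 0.41, adjusted p = 0.313 against cHet). The level of Fcgr2b over that of Fcgr3 was 2.01, 2.19 and 2.57 in cKO, 1.31, 1.93 and 1.58 in cHet and 1.06, 1.28 and 1.43 in control libraries. No cKO library overlapped either group (exact permutation p = 0.1 each, two-sided, unadjusted, the smallest for 3 against 3). Fcgr2b was already separate in these libraries before division, so this p is no independent support.

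Of the activating partners, Tyrobp had 71.4, 50.6 and 62.8 in cKO, 64.9, 55.8 and 52.1 in cHet and 79.0, 53.2 and 69.4 in control libraries, with the groups overlapping (log2FC -0.12, interval -0.52 to 0.28, adjusted p = 0.857). Fcgr1 and Fcer1g had a log2FC of 0.38 and 0.15 with adjusted p = 0.748 and 0.865. Trem2, a lipid receptor of phagocytes that signals through Tyrobp, had 5.76, 5.41 and 4.49 in cKO, 3.19, 3.23 and 2.34 in cHet and 3.88, 3.43 and 3.51 in control nerves. The 3 groups did not overlap, cKO being highest and cHet lowest, yet no comparison was called: log2FC was 0.47 (adjusted p = 0.286) against control and 0.75 (adjusted p = 0.0818) against cHet.

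**Figure D4:**
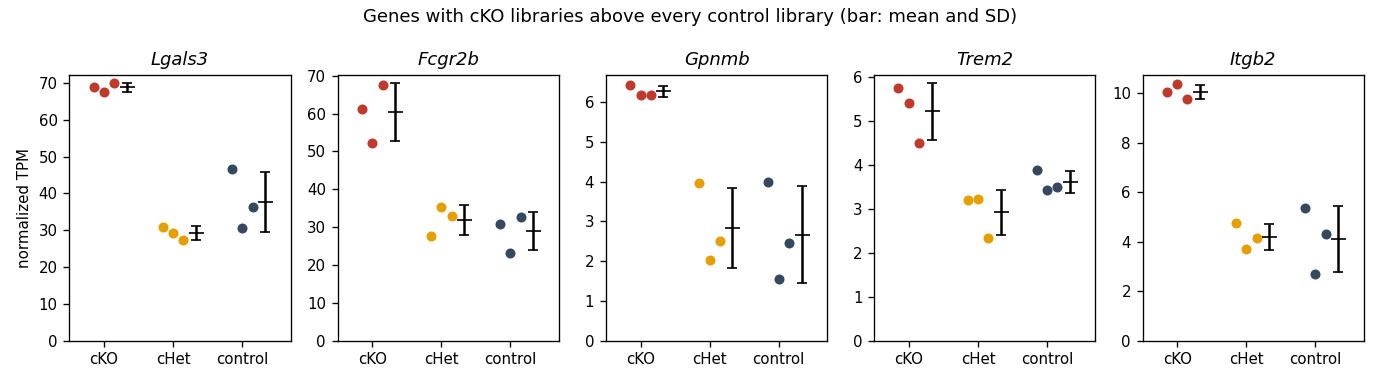
Normalized TPM of Lgals3, Fcgr2b, Gpnmb, Trem2 and Itgb2 in each library of cKO, cHet and control nerves, with the group mean and SD (n = 3 each). Every cKO point lies above every control and cHet point, Lgals3 between 67.5 and 70.1 in cKO and at 46.6 or less elsewhere.

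Lgals3, Gpnmb, Fcgr2b and Trem2 were the 4 of the 40 genes whose cKO libraries all lay above the control libraries, and none lay wholly below. Among all genes tested 8.85% were separated upward and 8.57% downward, so 4 of 40 is near the background.

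The complement genes cover the C1q chains that start the classical pathway (C1qa, C1qb, C1qc), the central component C3 and the receptors for its fragments and those of C5 (C3ar1, C5ar1). None of the 6 was called. C1qa had 138, 104 and 108 in cKO, 121, 95.6 and 96.9 in cHet and 139, 90.5 and 117 in control nerves (log2FC 0.03, interval -0.39 to 0.44, adjusted p = 0.976). C1qb had 124, 95.7 and 97.1 in cKO, 102, 80.9 and 82.8 in cHet and 121, 72.1 and 94.6 in control nerves (log2FC 0.16, interval -0.28 to 0.60, adjusted p = 0.819). C1qc had 106, 70.7 and 86.6 in cKO, 92.6, 67.2 and 79.5 in cHet and 107, 67.0 and 91.3 in control nerves (log2FC 0.00, interval -0.48 to 0.47, adjusted p = 0.996). In each gene cKO ID-2744 and control ID-2743 were the 2 highest libraries and the groups overlapped. The 3 chains are encoded side by side on the minus strand of chromosome 4 (GRCm38 136880129 to 136898803) and assemble into 1 molecule, and their levels kept a narrow ratio: C1qb over C1qa was between 0.796 and 0.920 and C1qc over C1qa between 0.680 and 0.820 over the 9 libraries. The first ratio was 0.895, 0.920 and 0.902 in cKO, 0.841, 0.847 and 0.855 in cHet and 0.873, 0.796 and 0.809 in control libraries, highest in cKO by a few hundredths (exact permutation p = 0.1 against either group, unadjusted, 9 ratios computed).

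Set against C1q, the called genes kept their separation. Lgals3 divided by the geometric mean of the 3 C1q genes was 0.566, 0.759 and 0.725 in cKO, 0.297, 0.365 and 0.317 in cHet and 0.384, 0.402 and 0.361 in control libraries. The same quotient of Fcgr2b was 0.503, 0.588 and 0.698 in cKO, 0.263, 0.439 and 0.383 in cHet and 0.253, 0.306 and 0.326 in control libraries. No cKO library overlapped another group (exact permutation p = 0.1 for each, the smallest possible). Both genes were already separate in these libraries before division, so this p is no independent support. With every gene of the table scaled this way the limma fit called neither gene in cKO minus control (log2FC 0.82 and 1.0, adjusted p = 0.364 and 0.328).

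C3, whose cleavage product coats targets for phagocytosis, is made by adipocytes and fibroblasts too, and varied most of the 40 genes. It had 22.4, 20.4 and 22.7 in cKO, 11.5, 3.34 and 12.3 in cHet and 36.7, 3.90 and 35.5 in control nerves, a range of 11.0-fold. The 2 controls with high adipocyte markers were the highest and the third control was among the lowest. The cKO libraries were within the control range (log2FC 0.31, interval -1.52 to 2.14, adjusted p = 0.93) and above all cHet libraries (log2FC 1.42, adjusted p = 0.47). Adipocyte markers and C3 were both lowest in cHet ID-2745 and control ID-2746, and their part in the difference was not tested. Of the receptors, C3ar1 had a log2FC of -0.01 and C5ar1 of -0.43 (adjusted p = 0.572) in cKO minus control, and C5ar1 was lower in every cKO than in every cHet library (log2FC -0.45, adjusted p = 0.493).

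MHC class II presents peptides to helper T cells, and Cd74, the invariant chain, escorts it in the cell. H2-Aa encodes an α chain, and H2-Ab1 and H2-Eb1 encode β chains. All 4 had a log2FC between -0.08 and 0.05 in cKO minus control, with adjusted p of 0.932 or more. Cd74 had 125, 153 and 105 in cKO, 137, 94.3 and 121 in cHet and 164, 107 and 134 in control nerves. H2-Aa had 61.4, 70.0 and 51.4 in cKO, 72.5, 43.5 and 56.4 in cHet and 80.0, 54.4 and 56.4 in control nerves. Groups overlapped for both, and the highest libraries were control ID-2743, cHet ID-2742 and cKO ID-2747. In cKO ID-2747, unlike the other 2 cKO libraries, class II was high while Csf1r, Adgre1 and Cx3cr1 were the lowest of the group. The macrophage genes were not low there as a set. In the same library Aif1 (13.5) and Ptprc (5.60) were the highest of the group, and Spi1, Irf8, Cd68 and Laptm5 lay between the other cKO libraries. B cells also carry class II, and the summed level of 6 B cell markers was 3.99, 17.6 and 5.35 in cKO, 5.14, 2.19 and 2.60 in cHet and 3.11, 4.63 and 2.01 in control libraries. Of the defining B cell genes, Cd79a was 3.46 in cKO ID-2747, against 1.79 or less in the other libraries, and Ms4a1 was 0.98 or less in all. The part of B cells in the class II values was not tested.

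The TAM receptors Mertk and Axl and their ligand Gas6, which bridges them to phosphatidylserine on dying cells and membrane, had no call. Mertk had 22.2, 23.8 and 20.6 in cKO, 13.1, 16.2 and 21.3 in cHet and 13.7, 13.8 and 22.6 in control nerves, so that 1 cHet and 1 control library reached the cKO level (log2FC 0.44, interval -0.07 to 0.95, adjusted p = 0.476). Axl, also found in endothelium and fibroblasts, had 78.9, 49.9 and 67.6 in cKO, 62.4, 54.1 and 68.2 in cHet and 70.3, 43.5 and 62.5 in control nerves (log2FC 0.16, adjusted p = 0.841). Gas6 had 102, 68.2 and 85.9 in cKO, 116, 56.3 and 84.0 in cHet and 103, 69 and 73.2 in control nerves (log2FC 0.07, adjusted p = 0.96). Both overlapped across the 3 groups.

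Heterozygous deletion gave no call in the 40 genes by limma: cHet minus control had 0 of 40 past the threshold, as of all genes tested (0%), and 1 of 40 at an unadjusted p under 0.05 (Lgals3, lower), beside 2.72% of all genes. The median log2FC was -0.05, against -0.03 over all genes. Trem2 was the only one of the 40 whose groups were separate, lower in cHet (log2FC -0.27). Of all genes 2.69% were separate upward and 4.41% downward.

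Against cHet, cKO nerves had Lgals3 and Fcgr2b higher and no gene of the 40 lower, where 0.932% of all genes were called higher and 0.773% lower. The median log2FC was 0.11, beside 0.02 over all genes. Lgals3, Gpnmb, Fcgr2b, Fcgr3, Trem2 and C3 were wholly above cHet and C5ar1 wholly below, 6 and 1 of 40, where 13.3% and 11.0% of all genes were separate in these directions. The count upward is near the background and that downward is below it. Comparisons with control and with cHet share the cKO libraries.

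Libraries differed among themselves across many of the 40 genes at once. Control ID-2743 was the highest of the 9 in 18 genes and cKO ID-2744 in 12, while control ID-2746 was the lowest in 15. The median deviation of the 40 genes from their means was 0.35, -0.06 and 0.06 log2 units in cKO, 0.13, -0.21 and -0.13 in cHet and 0.35, -0.34 and -0.13 in control libraries, an SD within groups of 0.26. The spread among the controls was wider than the difference between any 2 groups. Lgals3, Fcgr2b, Gpnmb and Trem2 departed from this order in that every cKO library lay above control ID-2743. Within the controls Lgals3, Gpnmb and Trem2 kept the order, with ID-2743 highest and ID-2746 lowest. The library cKO ID-2747 was among the 3 lowest for 16 of the 40 genes. It was close to the other cKO libraries for Lgals3 and Gpnmb, but the lowest of them for Fcgr2b.

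**Figure D5:**
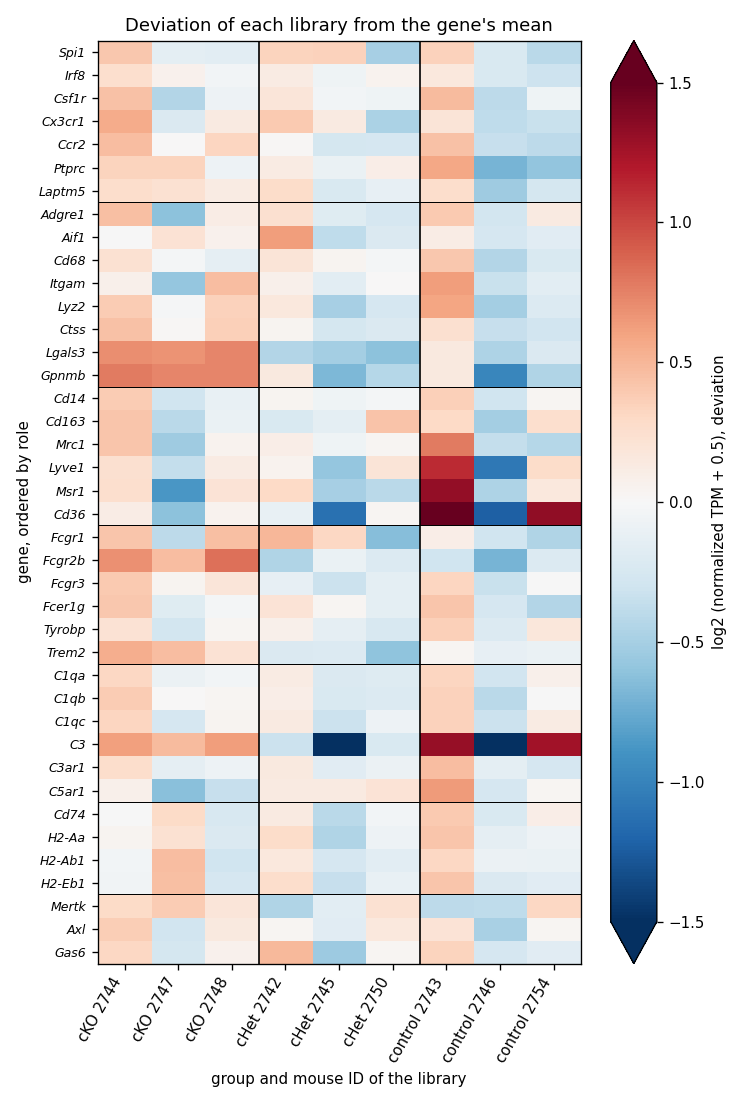
Deviation of each library from the mean of the gene, in log2 of normalized TPM plus 0.5, for the 40 genes (rows, by role) and 9 libraries (columns, cKO, cHet, then control). Control ID-2743 and cKO ID-2744 are red across most rows and control ID-2746 blue, while Lgals3, Gpnmb and Fcgr2b are red in all 3 cKO columns.

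Markers of other tissues also varied between libraries. The summed level of 10 skeletal muscle markers was 8253 in cKO ID-2748 and 15765 in control ID-2743, against 26.1 to 581 elsewhere. The sum of 10 neuron markers was 1642, 1500 and 3820 in cKO ID-2748, cHet ID-2742 and control ID-2746, against 182 to 382 elsewhere, and that of 9 neutrophil markers was between 7.69 and 75.4. None of these 3 sums separated cKO from control. Of the other cell type sums only that of 6 lymphatic endothelium markers did, at 101 to 116 in cKO, 128 to 155 in cHet and 119 to 164 in control libraries. Most of it was Reln (log2FC -0.32, adjusted p = 0.345), while Prox1, which defines that cell type, was 0.676 or less in every library. All 10 markers of endothelium had a log2FC below 0, between -0.48 (Kdr, adjusted p = 0.15) and -0.01, and none was called. Among 10 markers of myelinating Schwann cells, Egr2 (log2FC 0.70, adjusted p = 0.115) and S100b (0.60, adjusted p = 0.148) were higher in every cKO than in every control library and Mbp (-0.51, adjusted p = 0.516) lower, with none called. The part of these cell types in the values of the 40 genes was not tested. Lgals3 in the libraries not high in muscle or neuron markers was 68.9 and 67.5 in cKO (ID-2744, ID-2747), 29.4 and 27.2 in cHet (ID-2745, ID-2750) and 36.2 in control (ID-2754). That control had the highest adipocyte marker sum of the 9 libraries, 3210.

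The 2 calls depended on which libraries were used. Leaving out 1 library at a time gave adjusted p between 0.0109 and 0.112 for Lgals3 and between 0.0272 and 0.093 for Fcgr2b against control. Lgals3 passed only without cHet ID-2742, control ID-2743 or control ID-2746, and Fcgr2b missed the threshold without cKO ID-2744 or cKO ID-2748. Against cHet the range was 0.00257 to 0.0425 for Lgals3 and 0.0221 to 0.121 for Fcgr2b, which passed only without control ID-2746 or control ID-2754. Without the 3 libraries whose genotype field contradicts the title, which leaves 1 cKO, 2 cHet and 3 control libraries, Lgals3 had a log2FC of 0.91 and Fcgr2b of 1.23 with adjusted p = 0.643 and 0.427. Against cHet the log2FC were then 1.29 and 0.97 (adjusted p = 0.456 and 0.536), and the median of the 40 genes was 0.06 against control and 0.24 against cHet. Groups by the field leave cKO ID-2748 alone in its group beside 4 cHet and 4 control libraries, so its spread is taken from theirs. The log2FC were then 0.97 and 1.24 against control (adjusted p = 0.997 for both) and 0.67 and 0.61 against cHet (adjusted p = 1 for both), with medians of 0.00 and 0.13. A p from 1 cKO library says little about these genes. Against control and without the 2 controls high in adipocyte markers, the log2FC of Lgals3 and Fcgr2b were 1.16 (adjusted p = 0.0267) and 1.35 (adjusted p = 0.0846). Without the 3 libraries high in neuron markers they were 0.72 and 0.83 (adjusted p = 0.183 and 0.128), and without the 2 high in muscle markers 1.03 and 1.02 (adjusted p = 0.057 and 0.138).

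Beyond the 40 genes, 113 of 114 other genes in 6 lists of the same pathways were found in the table and 101 had a mean of 1 or more. A single gene was called higher in cKO than in control and none lower (median log2FC 0.02), the same count as against cHet. This is near the share of all genes called higher, 0.932% in both comparisons. None was called among 28 other macrophage genes (median log2FC -0.07), 20 of phagosomes and lysosomes (0.15), 15 of antigen presentation (-0.12), 12 of Fc receptor and ITAM signalling (0.07) and 13 phagocytosis receptors and bridging proteins (0.07). The called gene was Itgb2, 1 of 15 tested in the list of other complement genes (median log2FC 0.03).

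Itgb2 encodes integrin β2 (CD18), the partner that CD11b needs to form complement receptor 3, which binds cleaved C3, and the partner of the other leukocyte α chains. It lies on chromosome 10 (GRCm38 77530252 to 77565708, plus strand). It had 10.1, 10.4 and 9.79 in cKO, against 4.74, 3.71 and 4.13 in cHet and 5.36, 2.67 and 4.30 in control nerves. The cKO libraries were close together and all above the rest, which overlapped each other. The log2FC was 1.24 (SE 0.22, interval 0.74 to 1.74, adjusted p = 0.0346) against control and 1.18 (SE 0.22, adjusted p = 0.0397) against cHet. Without the 3 libraries with a contradicting field the log2FC against control was 1.20 (adjusted p = 0.756), and with groups by the field 1.15 (adjusted p = 0.997), each with 1 cKO library. Leaving out 1 library at a time gave adjusted p between 0.0356 and 0.131 against control, and between 0.0145 and 0.17 against cHet, in both below 0.05 only without control ID-2743 or control ID-2746. The call against control was also lost with sex as a covariate, with no filter on low values and with only the 2 groups compared (adjusted p = 0.0638, 0.0729 and 0.122), and that against cHet with sex, with no filter and with same-sum or quantile scaling (0.0676, 0.0851, 0.0607 and 0.0681). Without the libraries high in neuron markers, without those high in muscle markers and after division by C1q, the adjusted p was 0.152, 0.12 and 0.124 against control and 0.115, 0.111 and 0.238 against cHet. Its α partner Itgam, of uncertain level, had 3.01, 1.73 and 4.08 in cKO, 3.01, 2.49 and 2.84 in cHet and 4.63, 2.15 and 2.48 in control libraries.

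Promoters are shown for 3 of the 4 genes with separated cKO and control libraries and for C1qb, whose libraries overlapped. Both kinds can thus be read side by side. RefSeq (GRCm38.p6) gave 250 bases before the start for 30 of the 40 genes. The letters GAGGAA, the purine-rich core that PU.1 can bind, were searched on both strands and were in 14 of the 33 promoters of these 30 genes (42.4%) and in 23.3% of 32851 promoters of all genes. TGANTCA, an AP-1 element with any base allowed at N, was in 3 of 33 (9.09%) and in 6.75% of all. Capitals mark a match to either motif, TTCCTC being GAGGAA on the other strand. Trem2 has both motifs, the second with A at N, C1qb has GAGGAA, and neither was found in these windows of Lgals3, Gpnmb or Fcgr2b. A match is a match of letters only. The Lgals3 window precedes the RefSeq start but lies inside the longer GENCODE gene model, and it is cut before an annotated exon. Lines read 5′ to 3′, with Lgals3 at chr14:47373610-47373812 (plus strand), Gpnmb at chr6:49036268-49036517 (plus), Trem2 at chr17:48346151-48346400 (plus) and C1qb at chr4:136886201-136886450 (minus).
Lgals3 promoter: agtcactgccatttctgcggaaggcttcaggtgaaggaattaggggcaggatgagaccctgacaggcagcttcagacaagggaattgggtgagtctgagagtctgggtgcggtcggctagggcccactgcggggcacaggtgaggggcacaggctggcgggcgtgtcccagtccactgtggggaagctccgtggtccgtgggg
Gpnmb promoter: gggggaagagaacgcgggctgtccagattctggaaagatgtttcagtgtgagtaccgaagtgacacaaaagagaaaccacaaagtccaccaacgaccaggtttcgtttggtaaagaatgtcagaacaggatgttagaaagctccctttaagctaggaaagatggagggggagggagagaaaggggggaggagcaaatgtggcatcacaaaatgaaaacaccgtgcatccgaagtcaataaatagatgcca
Trem2 promoter: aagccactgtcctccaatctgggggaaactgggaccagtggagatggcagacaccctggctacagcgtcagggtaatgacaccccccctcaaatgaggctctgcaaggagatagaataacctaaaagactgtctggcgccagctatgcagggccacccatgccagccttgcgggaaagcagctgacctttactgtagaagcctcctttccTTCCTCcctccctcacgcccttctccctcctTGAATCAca
C1qb promoter: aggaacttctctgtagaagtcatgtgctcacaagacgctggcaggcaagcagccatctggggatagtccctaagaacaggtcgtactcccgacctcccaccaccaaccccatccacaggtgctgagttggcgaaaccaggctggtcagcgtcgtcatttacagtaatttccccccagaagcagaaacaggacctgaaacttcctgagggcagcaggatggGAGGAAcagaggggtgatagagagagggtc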

How the data were processed

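RNA of whole sciatic nerve was sequenced after TruSeq library preparation, 3 libraries per genotype. The authors deposited 1 table of normalized TPM, a signal per gene with no counts, for which GRCm38 and the tools sleuth 0.30.0 and kallisto 0.44.0 are listed in the notes on processing by the submitters. Library sums ran between 934932 and 1158094. TPM keeps no depth, so depth is unknown, and a strand setting for counting is not given in the sources used here. Of the 40 genes 6 have exons that overlap another gene. Symbols were matched for 35471 of 36121 identifiers.

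Groups come from sample titles. limma 3.58.1 (R 4.3.3) was fitted with a mean-variance trend to log2(normalized TPM + 0.5) of 15014 genes with a mean of at least 1, with no covariate, and p-values were adjusted by the Benjamini-Hochberg method. Single values were compared with two-sided exact permutation tests. The fit was tested on simulated data. Mouse IDs are unique, so no pairing was used, and litters are not in the labels. p-values measure the spread between mice.

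The 40 genes, their roles and the other lists were chosen with earlier results of these data known. The rule for values in every library named genes past the threshold, genes with separate cKO and control libraries and 21 genes by symbol. Fcgr3, Itgam, C5ar1 and Adipoq were added after their values were seen. Other pathway genes were given with values only when past the threshold, except Cfd, Retnla and Clec10a, which were chosen after their values were seen. Each result was recomputed under 21 other settings and under 4 added after seeing the data: 3 leave out libraries high in adipocyte, neuron or muscle markers and 1 divides by C1q. Ifi30 was not analysed here.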

Additional observations from a re-analysis of the deposited data

How the results depend on the processing

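The log2FC of Lgals3 and Fcgr2b in cKO minus control and in cKO minus cHet kept their sign under all 25 alternatives; their calls did not. In cKO minus control the count of called members was 2 in the model as reported and stayed 2 with another pseudocount, filter or scaling, with sex as a covariate and with no trend. It was 0 with only the 2 groups compared, without the 3 libraries high in neuron markers, without the 2 high in muscle markers and after division by C1q. Groups by the genotype field and the fit without the 3 libraries whose field differs leave 1 cKO library. Leaving out the 2 controls high in adipocyte markers leaves 1 control library, so a count from these settings says little. Leaving out 1 library at a time gave a count of 0 to 2. It was 0 without cKO ID-2744 or ID-2748. Fcgr2b alone was called without cKO ID-2747, cHet ID-2745, cHet ID-2750 or control ID-2754. The median log2FC ran between -0.06 and 0.33 over these 9 fits and was 0.41 without the 2 controls high in adipocyte markers, which moved the cHet minus control median to 0.28.

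In cKO minus cHet the count was 2, and 1 (Lgals3) with no filter, with libraries rescaled to the same sum, with median of ratios scaling, with quantile normalization, with no trend and without the 2 libraries high in muscle markers. It was 0 with groups by the genotype field, without the 3 libraries whose field differs, without the 3 high in neuron markers and after division by C1q. Leaving out 1 library gave 1 or 2, with Lgals3 called each time. In cHet minus control 0 members were called under every alternative.

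Over all genes, 235 called in cKO minus control became 50 with only the 2 groups compared, 2 with groups by the field, 0 without the 3 libraries, 19 without the 2 adipocyte-high controls, 16 without the neuron-high and 23 without the muscle-high libraries, 13 after division by C1q, and 50 to 179 without 1 library. The 256 in cKO minus cHet became 168 with no filter, 0, 0, 14, 40 and 16 under the field, 3-library, neuron, muscle and C1q settings, and 55 to 274 without 1 library. The cause of each change was not tested. Fewer libraries leave fewer degrees of freedom. With 1 cKO or 1 control library left, the spread of that group is assumed to equal that of the others. Rescaling libraries to the same sum moved the cKO minus cHet median of members to -0.02.

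No paired analysis was possible because the groups share no replicate number and the labels name no litter. The paper states that age-matched mice of a shared litter, or of litters born close together, were grouped for analysis. Which libraries were matched this way is not given.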

Other observations

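A further 3 genes of the other pathway lists were high in the 2 control libraries with high adipocyte markers. They were chosen after their values were seen and none was called. Cfd is itself among the adipocyte markers summed to define these libraries as high, so its height there is no separate observation. Cfd (adipsin, the complement factor D that adipocytes secrete) had 136, 188 and 148 in cKO, 235, 18.5 and 231 in cHet and 916, 27.8 and 1078 in control nerves, in the order ID-2743, ID-2746 and ID-2754. Retnla, a secreted protein of adipose tissue and of alternatively activated macrophages, had 96.0, 113 and 107 in cKO, 122, 32.9 and 155 in cHet and 416, 42.1 and 203 in control nerves. Clec10a, a lectin of macrophages and dendritic cells, had 13.6, 7.83 and 7.39 in cKO, 10.1, 5.49 and 11.7 in cHet and 23.4, 6.06 and 17.2 in control nerves.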
